A study of Mus musculus with 3 samples.

Results

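The 9 genes described here encode A20 and the other regulators that write, read and erase ubiquitin chains upstream of NF-κB. They were chosen by gene symbol (Tnfaip3, Tnip1, Tnip2, Cyld, Otulin, Otud7b, Rnf31, Rbck1 and Sharpin), and all 9 were found among the 37646 genes of each count table. RNA was sequenced from 3 libraries of sorted B220+GFP+ lymphoma cells from spleens of pBIC2 mice, a C57BL/6 model of activated B cell type diffuse large B cell lymphoma. The genotype was p53F/F, Blimp1F/F, IKK2castopF/stopF, Cg1Cre/+ and Eµ-hBCL2tg/+ in every library, and the age of the mice is not given in the sources used here. Cre from the Cγ1 locus acts in B cells that transcribe that locus, on the floxed p53 and Blimp1 alleles and on the stop cassette before a constitutively active IKK2, the kinase that activates canonical NF-κB. The Eµ enhancer drives human BCL2 in the same cells. All 3 libraries (tumours 1, 2 and 3) carry these alleles and form 1 group. The normal B cells that the labels name for comparison were not analysed here. The values are therefore levels and their spread between tumours (SD, n = 3). The labels do not say whether the libraries came from separate mice.

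Receptor complexes upstream of NF-κB carry ubiquitin chains that recruit the IKK complex. Linear chains are built by LUBAC, a ligase made of HOIP (Rnf31, the catalytic subunit), HOIL-1L (Rbck1) and SHARPIN (Sharpin). A20 (Tnfaip3) dampens the signal by editing and binding chains, together with its binding partners ABIN-1 (Tnip1) and ABIN-2 (Tnip2). OTULIN cleaves linear chains, CYLD cleaves linear and other chains, and Cezanne (Otud7b) is a deubiquitinase of the same OTU family as A20. A20 is itself an NF-κB target gene, and its loss is a known lesion of human lymphoma of the activated B cell type.

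The libraries held 15576975, 16477997 and 17014022 counts in tumours 1, 2 and 3. At this depth 3 counts, the upper limit that a count of 0 allows, correspond to 0.173 to 0.197 CPM (read counts scaled by library size, with TMM factors). Of 10 B cell markers, 9 reached 10 CPM in all 3 tumours, and Vpreb3 was the exception (65.8, 8.93 and 2.30 CPM). Markers of other cells differed between tumours. The 10 T cell markers summed to 114, 275 and 1400.4 CPM in tumours 1, 2 and 3, with Cd3e at 0, 1.40 and 58.8 CPM and Cd8a at 0.656, 4.49 and 243 CPM. The 10 macrophage markers summed to 35.9, 451 and 192 CPM, mostly Cd68 (24.5, 322 and 165 CPM). Of the 8 averaging 1 CPM or more, 7 were highest in tumour 2, among them Mrc1 (0.524, 51.6 and 9.26 CPM). Cd14 was at 0 in tumours 1 and 3. The 9 neutrophil markers summed to 0.197, 16.9 and 43.8 CPM and the 5 NK cell markers to 1.84, 2.31 and 48.8 CPM, with Ncr1 at 0 throughout.

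Promoter sequence is shown for the 3 members whose promoter held the κB consensus, the motif bound by NF-κB dimers. Windows from 250 bases before to 50 after a transcript start were taken from RefSeq (GRCm38.p6), in which 7 of the 9 members had 9 windows. The stretches printed here end 1 base before the start and avoid annotated GENCODE exons. Each is written 5′ to 3′ on the strand of its gene, with κB matches in capitals. The Tnfaip3 stretch lies inside the annotated GENCODE gene, which reaches further upstream, to 19015657, than the RefSeq start used here.
Tnfaip3 (chr10:19015411-19015547, minus strand): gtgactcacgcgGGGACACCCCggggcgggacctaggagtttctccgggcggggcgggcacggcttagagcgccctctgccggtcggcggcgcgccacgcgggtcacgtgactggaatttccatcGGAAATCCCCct
Tnip1 (chr11:54962941-54963190, minus strand): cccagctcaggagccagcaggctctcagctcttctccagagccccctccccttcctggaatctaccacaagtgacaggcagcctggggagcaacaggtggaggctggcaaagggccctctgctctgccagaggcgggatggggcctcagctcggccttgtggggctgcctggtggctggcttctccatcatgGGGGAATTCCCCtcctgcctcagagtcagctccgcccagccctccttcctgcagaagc
Cyld (chr8:88696778-88697027, plus strand): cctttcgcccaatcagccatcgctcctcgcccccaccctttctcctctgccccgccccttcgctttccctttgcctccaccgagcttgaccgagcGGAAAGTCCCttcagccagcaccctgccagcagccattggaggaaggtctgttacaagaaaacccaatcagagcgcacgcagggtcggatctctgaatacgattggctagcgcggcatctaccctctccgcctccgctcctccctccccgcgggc

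The Tnfaip3 promoter held 2 matches, GGGACACCCC from base -125 and, on the opposite strand, GGGGATTTCC from base -12 relative to the start. It also held the AP-1 motif TGANTCA, from base -136. In Tnip1, 3 overlapping matches formed a single palindromic stretch from base -58, and in Cyld GGGACTTTCC lay on the opposite strand from base -155. No match was found in the windows of Tnip2, Otulin, Rnf31 and Rbck1, or in a second window of Tnfaip3. Searched on both strands, 8.46% of all 32851 RefSeq windows of this length held the κB consensus and 7.81% held the AP-1 motif. By gene, 9.55% of 27025 genes with a window held the κB consensus. Sharpin and Otud7b had no window and could not be searched. Tnfaip3 and Tnip1, the 2 members whose level differed most between tumours (below), are among the 3 with a κB match. Whether matches go with spread between tumours was not tested. A match describes these letters and shows no binding.

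In the mm10 assembly (GENCODE M21) Tnfaip3 (ENSMUSG00000019850.11) lies on chromosome 10 from 19000910 to 19015657, Tnip1 (ENSMUSG00000020400.17) on chromosome 11 from 54910785 to 54962917 and Tnip2 (ENSMUSG00000059866.13) on chromosome 5 from 34496087 to 34513991. The LUBAC genes are at chromosome 14, 55591708 to 55603693 (Rnf31, ENSMUSG00000047098.18), chromosome 2, 152316334 to 152332653 (Rbck1, ENSMUSG00000027466.15) and chromosome 15, 76347040 to 76351111 (Sharpin, ENSMUSG00000022552.16). The deubiquitinase genes are at chromosome 8, 88697028 to 88751945 (Cyld, ENSMUSG00000036712.15), chromosome 15, 27542635 to 27630693 (Otulin, ENSMUSG00000046034.8) and chromosome 3, 96104527 to 96161129 (Otud7b, ENSMUSG00000038495.14). Exons of 8 members overlap no other annotated exon. Rnf31 shares 123 bases, 2.15% of its exon length, with Irf9 on the same strand.

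All 9 members reached 10 CPM in all 3 tumours, a level that 20.5% of all genes and 62.0% of the 12449 genes averaging 1 CPM or more (called expressed below) reached. Tnfaip3 was the most abundant by CPM and the most variable. Its level was highest in tumour 1 and lowest in tumour 3, while 5 members (Tnip1, Cyld, Otud7b, Rnf31 and Rbck1) had the opposite order, lowest in tumour 1 and highest in tumour 3 (for Rnf31, tumour 2 was lowest when scaling factors were computed without a filter on low counts). The smallest count behind any value was 281 (Tnip2 in tumour 1), with an exact 95% Poisson interval of 16.3 to 20.7 CPM, and intervals cover counting error only.

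**Figure D1:**
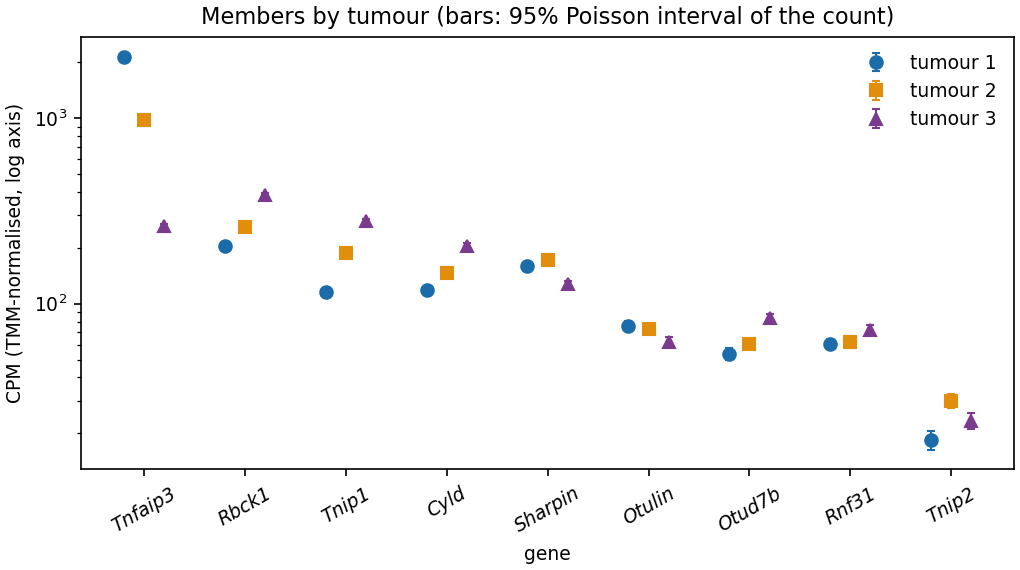
CPM (TMM-normalised, log axis) of the 9 genes in each of 3 lymphoma libraries, with exact 95% Poisson intervals of the counts as bars. Tnfaip3 lies at 2124 CPM in tumour 1 and 261 CPM in tumour 3, and Tnip1 lies at 116 CPM in tumour 1 and 278 CPM in tumour 3.

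Tnfaip3, which encodes the feedback inhibitor A20, had 32400, 16079 and 4536 counts in tumours 1, 2 and 3, or 2124, 977 and 261 CPM (mean 1120.5 ± 939.8 CPM, and 631 CPM without tumour 1). It ranked number 30 of all genes by CPM in tumour 1, number 81 in tumour 2 and number 659 in tumour 3. Every pair of tumours differed by far more than counting error. Tumour 1 was 8.14-fold above tumour 3 (exact 95% interval of the count ratio 7.89 to 8.40) and 2.17-fold above tumour 2 (2.13 to 2.22), and tumour 2 was 3.74-fold above tumour 3 (3.62 to 3.87). Each tumour is 1 library, so these ratios compare libraries and have no replicate check.

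The genes of the A20 partners had other orders. Tnip1, whose product ABIN-1 binds A20 and linear ubiquitin, was at 116, 186 and 278 CPM in tumours 1, 2 and 3 (193 ± 81.4 CPM), 2.41-fold higher in tumour 3 than in tumour 1 (2.28 to 2.54). Tnip2, which encodes ABIN-2, was the least abundant member by CPM at 18.4, 30.01 and 23.3 CPM (23.9 ± 5.82 CPM), and tumour 2 was 1.63-fold above tumour 1 (1.40 to 1.89). Tnfaip3 and Tnip1 thus stood in opposite order across the tumours, and Tnip2 was highest in tumour 2.

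Among the LUBAC genes, the catalytic subunit gene was the steadiest. Rnf31 was at 60.8, 62.3 and 72.5 CPM (65.2 ± 6.36 CPM), and its tumour 2 to tumour 1 ratio of 1.02 had an interval (0.936 to 1.12) that includes equality. Rbck1 was at 204, 260.03 and 385 CPM (283 ± 92.9 CPM), 1.89-fold higher in tumour 3 than in tumour 1 (1.81 to 1.97). Sharpin was at 159, 171 and 127 CPM (152 ± 22.4 CPM) and was lowest in tumour 3, at 0.745 of its tumour 2 level (0.705 to 0.788). Between tumours 2 and 3, Rbck1 was therefore higher and Sharpin lower in tumour 3.

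The deubiquitinase genes varied less than Tnfaip3. Cyld was at 118, 146 and 205 CPM (156 ± 44.3 CPM) and was 1.74-fold higher in tumour 3 than in tumour 1 (1.64 to 1.84). Otud7b was at 53.6, 60.9 and 83.9 CPM (66.1 ± 15.8 CPM), 1.57-fold higher in tumour 3 than in tumour 1 (1.44 to 1.71). Otulin was at 76.04, 73.01 and 61.99 CPM (70.3 ± 7.39 CPM), and tumour 3 was at 0.815 of tumour 1 (0.750 to 0.886). Otulin was the only member besides Tnfaip3 with tumour 1 highest and tumour 3 lowest, though tumours 1 and 2 lay within counting error of each other (ratio 0.960, 0.885 to 1.04).

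Levels of different genes were compared per length, as RPKM (CPM per kilobase of merged GENCODE exons). By mean RPKM the order was Tnfaip3 (155 ± 130.1), Rbck1 (61.5 ± 20.2), Tnip1 (54.6 ± 23.01), Otulin (41.6 ± 4.37), Sharpin (39.9 ± 5.88), Cyld (12.4 ± 3.52), Rnf31 (11.4 ± 1.11), Tnip2 (8.90 ± 2.17) and Otud7b (7.20 ± 1.73). Neighbours in this order overlapped between tumours except Sharpin and Cyld, and each of the upper 5 genes lay above all of the lower 4 in every tumour. In tumour 3 Tnfaip3 was at 36.1 RPKM, below Rbck1 (83.7 RPKM) and Tnip1 (78.6 RPKM) and close to Otulin (36.6 RPKM). With the longest transcript as length, the order of Tnfaip3 and Otulin in tumour 3 turned (42.1 and 41.6 RPKM). By mean RPKM with that length, Sharpin (79.9 RPKM) moved above Tnip1 (65.03 RPKM) and Otulin (47.2 RPKM), since merged exons of Rbck1 and Sharpin are far longer than their longest transcripts.

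The composition of the set differed between tumours mainly by Tnfaip3. Of the summed RPKM of the 9 genes, Tnfaip3 made up 60.0% in tumour 1, 36.3% in tumour 2 and 11.5% in tumour 3. Tnip1 held 6.66%, 14.1% and 24.9%, and Rbck1 held 9.04%, 15.2% and 26.6%. Summed RPKM was 490.02, 373 and 315 in tumours 1, 2 and 3, whereas the other 8 genes without Tnfaip3 summed to 196, 237 and 279.

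**Figure D2:**
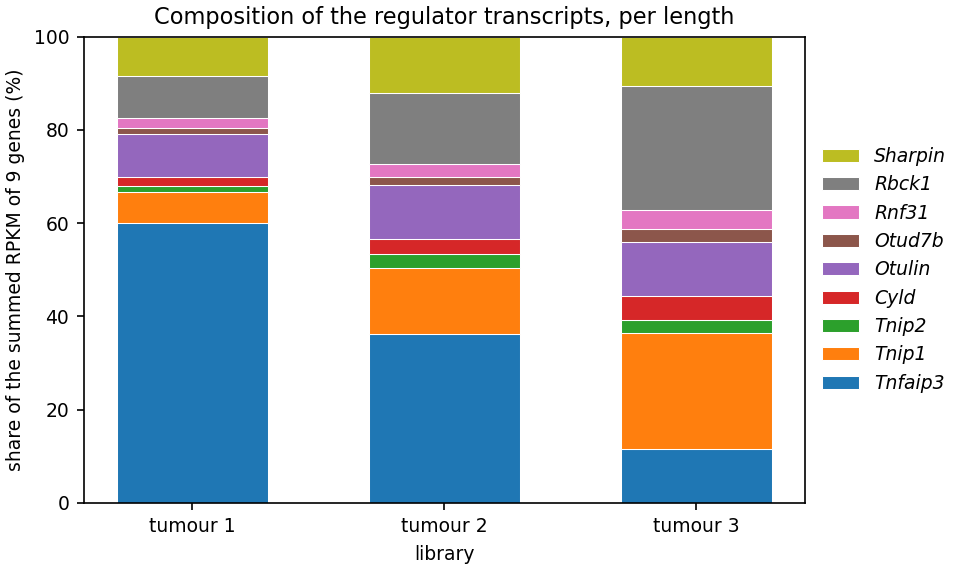
Share of each gene in the summed RPKM of the 9 genes (%), stacked for each of 3 lymphoma libraries. The Tnfaip3 block covers 60.0% in tumour 1 and 11.5% in tumour 3, while the Tnip1 and Rbck1 blocks are widest in tumour 3.

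Ratios within a library show how the balance between inhibitor, partner and ligase differed. The log2 RPKM of Tnfaip3 minus that of Tnip1 was 3.17, 1.36 and -1.12 in tumours 1, 2 and 3 (1.14 ± 2.15), so A20 transcripts exceeded ABIN-1 transcripts in tumours 1 and 2 and not in tumour 3. Against the mean of Cyld, Otulin and Otud7b, the Tnfaip3 difference was 4.45, 3.18 and 1.04 (2.89 ± 1.72, with a mean of 2.11 without tumour 1 and 3.81 without tumour 3). The LUBAC balance, log2 RPKM of Rnf31 minus the mean of Rbck1 and Sharpin, was -2.02, -2.21 and -2.06 (-2.10 ± 0.10, and -2.86 with the longest transcript as length), a narrow range, although Rbck1 minus Sharpin was 0.09, 0.34 and 1.33. For the opposed linear chain enzymes, Rnf31 minus Otulin was -2.08, -1.99 and -1.53 (-1.87 ± 0.29). Cyld minus Otud7b was 0.68, 0.81 and 0.83 (0.77 ± 0.08). With 3 tumours a two-sided sign-flip test cannot give a p below 0.25, so none was run.

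The spread of each member was set against that of other genes. A range of 2-fold or more between tumours (highest against lowest log2 CPM, prior count 2) was seen for 2 of the 9 members, Tnfaip3 and Tnip1, against 41.4% of expressed genes. A range of 1.5-fold was seen for 6 members, against 67.9% of expressed genes, and one of 4-fold for 1 member (Tnfaip3), against 18.4%. With a tumour left out, a 2-fold range was seen for Tnfaip3 but not Tnip1 without tumour 1 (23.2% of expressed genes) or without tumour 3 (25.6%), and for both without tumour 2 (28.6%). The median SD of log2 CPM was 0.35 over the members and 0.44 over expressed genes, which reach down to 1 CPM, below any member. Over the members it was 0.31, 0.46 and 0.22 without tumours 1, 2 and 3. Over genes with a mean CPM within a factor of 2 of a member's, the median SD was 0.34 (for Tnip1) to 0.40 (for Tnfaip3). The SD of Tnfaip3 was 1.53, larger than in 97.1% of 174 genes with a mean CPM within a factor of 2 of its own, of which 5 had a larger SD. Tnip1 (SD 0.63) exceeded 84.9% of 2223 genes of like level. At the other end Rnf31 (0.14) and Otulin (0.16) exceeded 10.7% of 4227 and 13.8% of 4155 such genes, and Sharpin (0.22) exceeded 25.8% of 2796. Rbck1 (0.46), Cyld (0.40), Tnip2 (0.35) and Otud7b (0.33) lay between, at 69.1%, 59.2%, 43.7% and 46.8%. These SDs rest on single libraries. Without tumour 3 they were 0.79 for Tnfaip3, 0.25 for Rbck1, 0.22 for Cyld, 0.13 for Otud7b, 0.08 for Sharpin, 0.04 for Otulin and 0.02 for Rnf31, and without tumour 1 they were 0.38 for Tnip1 and 0.33 for Sharpin. Tnfaip3 kept the largest SD of the 9 in each case.

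**Figure D3:**
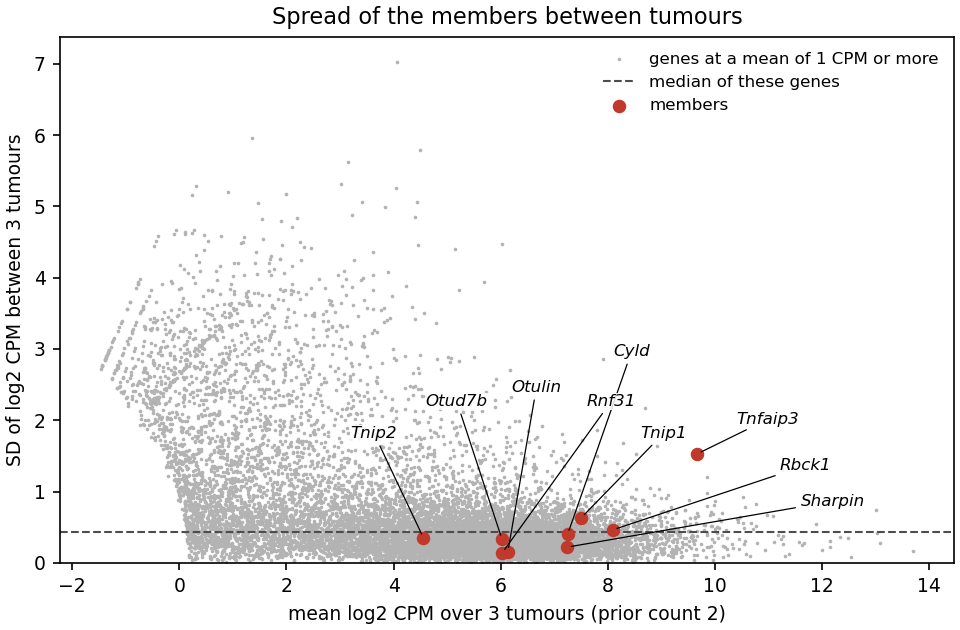
SD of log2 CPM between 3 tumours against mean log2 CPM (prior count 2) for each gene at a mean of 1 CPM or more (grey) and for the 9 members (red); the dashed line is the median of the grey genes, 0.44. Tnfaip3, at an SD of 1.53, lies above most genes of its level, and Rnf31 and Otulin lie near the lower edge.

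Between tumours 3 and 1, 1 member (Tnip1) was 2-fold or more higher in tumour 3, as were 17.9% of expressed genes, and 1 (Tnfaip3) was 2-fold or more lower, as were 10.8%. The order tumour 1 below tumour 2 below tumour 3 was shown by 5 of 9 members against 23.0% of expressed genes, and the reverse order by 2 members against 16.9% (without a filter before scaling, Rnf31 left the first group). The median log2 difference of tumour 3 from tumour 1 was 0.34 over the members and 0.07 over expressed genes. The sum of T cell markers had the same order as the 5 members, as did 8 of the 10 T cell genes (not Cd4 and Lck). The sums of neutrophil and NK cell markers also had this order. In tumour 3 the NK cell sum was mostly Prf1 (40.8 CPM). Klrb1c was highest in tumour 1 (1.70, 0.0607 and 0 CPM) and Ncr1 was at 0 throughout. In tumour 1 Cd3e was at 0, and the T cell sum was mostly Lck (67.9, 23.3 and 204 CPM) and Cd2 (34.9, 211 and 389 CPM), which B cells can also transcribe. Their part in the higher levels of Tnip1, Rbck1, Cyld and Otud7b in tumour 3 was not tested. In a bulk library, fewer cells of a type and less RNA per cell cannot be told apart. Tnfaip3 was lowest in the library with the highest T cell marker sum and highest in the one with the lowest.

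Other genes of the pathway were described from 5 lists. Of the 5 genes in the A20 partner list, 4 reached 10 CPM in all tumours, against 62.0% of expressed genes, and 0 ranged by 2-fold, against 41.4%. The ubiquitin binding adaptor Tax1bp1 was at 167, 116 and 156 CPM and the ligase Itch at 81.4, 95.1 and 121 CPM, both of which act with A20, and Tnfaip1, a BTB domain protein placed in the list by its name, was at 37.6, 71.8 and 52.1 CPM. Tnip3 (ABIN-3), the remaining ABIN gene, had 40, 46 and 40 counts, a mean of 2.57 CPM. The SDs of log2 CPM in this list were 0.06 to 0.46, against 1.53 for Tnfaip3. The largest was that of Tnfaip1, and the next was 0.29 for Itch. Tnip1 was by CPM the most abundant of the 3 ABIN genes.

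Of 10 other OTU and related deubiquitinase genes, 7 reached 10 CPM in all tumours, against 62.0% of expressed genes. A 2-fold range was seen for 2, against 41.4%. Otud4 (154, 145 and 193 CPM), Otud5 (158, 134 and 169 CPM) and Vcpip1 (77.9, 99.7 and 91.1 CPM) were the most abundant. The largest SDs were those of Usp18, an interferon-induced protease that removes ISG15 (40.2, 3.95 and 6.44 CPM), and Otud1 (50.7, 58.4 and 16.3 CPM). Otud1 resembled Tnfaip3 in being lowest in tumour 3, but it was not highest in tumour 1. Otud7a, the closest relative of Otud7b, had no count in any tumour.

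Of 13 genes for ubiquitin enzymes and adaptors of the receptor complexes, 12 reached 10 CPM in all tumours, against 62.0% of expressed genes. A 2-fold range was seen for 5, against 41.4%. In 10 of the 13 tumour 3 was highest, against 37.8% of expressed genes. Among these, Birc3 and Xiap in tumour 3 lay within counting error of tumour 1 (ratios 1.03, 0.977 to 1.08, and 1.01, 0.945 to 1.09). Ube2v1 in tumour 3 lay within counting error of tumour 2 (ratio 1.46, 0.987 to 2.19). The list was led by the conjugating enzyme gene Ube2d3 (262, 249 and 318 CPM) and by Birc2 and Birc3, which encode the ligases cIAP1 and cIAP2. Birc2 was at 265, 216 and 98.0 CPM, lowest in tumour 3 like Tnfaip3, while Birc3 was at 199, 73.8 and 204 CPM, lowest in tumour 2. Ube2v1 varied most (0.852, 2.67 and 3.91 CPM), and these levels are uncertain, as 61.5% of its exon bases are shared with the annotated gene Gm20431 on the same strand.

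Ubiquitin chains are read out by the IKK and TAK1 kinase complexes. All 8 genes of this list reached 10 CPM in all tumours, against 62.0% of expressed genes. A 2-fold range was seen for 1 (Tbk1), against 41.4%, and the list median SD was 0.33. Ikbkb, the mouse IKK2 gene, whose counts cannot be told apart from those of the transgene, was at 473, 345 and 409 CPM. Tab2, an adaptor that binds ubiquitin chains, was at 338, 279 and 204 CPM, its partner Tab1 at 46.3, 28.7 and 23.6 CPM and Tbk1 at 145, 190 and 89.2 CPM. Tab1, Tab2 and Map3k7, the TAK1 gene (103, 98.5 and 94.0 CPM), had the order of Tnfaip3, over less than a 2-fold range. These were 3 of 8 genes, against 16.9% of expressed genes. For Map3k7 both steps of the order lay within counting error. Its tumour 2 to tumour 1 ratio was 0.958 (0.893 to 1.03) and its tumour 3 to tumour 2 ratio 0.954 (0.890 to 1.02).

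A list of 20 genes taken as NF-κB targets, feedback regulators and others (Tnfaip3 not among them), was set beside the members. Whether NF-κB drives each of them in these cells was not tested, and Birc3 is also in the list of receptor complex genes. In this list 19 reached 10 CPM in all tumours (Bcl2l1 was the exception), against 62.0% of expressed genes. A 2-fold range was seen for 7, against 41.4%, and the median SD was 0.41. The order of Tnfaip3, tumour 1 highest and tumour 3 lowest, was found in 5 of 20, against 16.9% of expressed genes. In tumour 3, 1 gene (Cd83) was 2-fold or more lower than in tumour 1, as were 10.8% of expressed genes. In the other direction, 3 genes (Traf1, Bcl2l1 and Ccnd2) were 2-fold or more higher in tumour 3, against 17.9%. The most abundant members by CPM were Ltb (491, 431 and 726 CPM), Ccnd2 (202, 665 and 460 CPM) and Nfkbid (564, 462 and 282 CPM). Traf1 was at 39.5, 57.6 and 205 CPM, and Tnf (54.9, 297 and 58.2 CPM) was highest in tumour 2. The median log2 difference of tumour 3 from tumour 1 was -0.09 over the list and 0.07 over expressed genes.

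**Figure D4:**
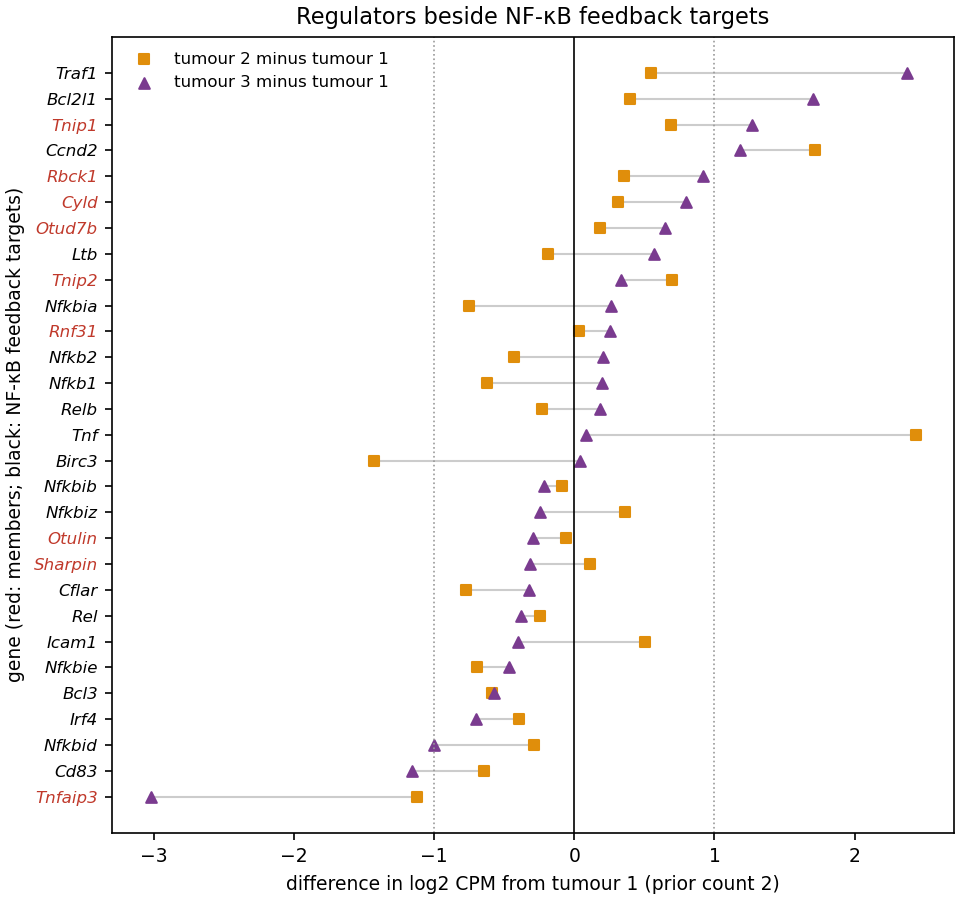
Difference in log2 CPM (prior count 2) of tumour 2 (squares) and tumour 3 (triangles) from tumour 1 for the 9 members (red names) and 20 genes listed as NF-κB targets (black names, labelled feedback targets), ordered by the tumour 3 value. Dotted lines mark 2-fold. Tnfaip3 has the lowest tumour 3 value of these genes, at -3.02, and Tnip1 is the third highest, at 1.27.

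Genes with the most similar pattern over the 3 tumours were listed for both members that ranged by 2-fold, by the largest absolute difference of centred log2 CPM. Predicted, immunoglobulin, mitochondrial and ribosomal protein genes and pseudogenes were left out. Of the 8392 other genes averaging 10 CPM or more, 6 lay within 0.25 of Tnfaip3 in every tumour. The closest were Pdxk (48.3, 22.8 and 5.92 CPM), Adamtsl4 (59.8, 30.8 and 7.88 CPM), Slc15a3 (108, 53.6 and 11.4 CPM), Snhg4 (45.95, 16.04 and 5.18 CPM) and Btbd8 (59.4, 20.1 and 5.98 CPM). Around Tnip1 lay 351 genes, the closest being Dock2 (469.8, 756 and 1128 CPM), Dhx35 (23.9, 38.7 and 56.4 CPM), Myo1c (251, 397 and 582 CPM), Zbtb26 (6.16, 9.78 and 15.2 CPM) and Aldh3a2 (33.2, 53.03 and 82.1 CPM). With 3 points many genes resemble each other, and the likeness is a description of these libraries.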

How the data were processed

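Polyadenylated RNA of 3 lymphoma libraries was read as 50 nt single ends, per the labels. The authors deposited raw counts per gene, from STAR 2.5.2b and featureCounts 1.6.0 on mm10, per the submitters' processing notes. No source used here gives the strand setting or annotation release, and antisense reads may be mixed with those of a gene.

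TMM factors (0.979, 0.999 and 1.02) were computed with edgeR 4.0.16 (R 4.3.3) on 11273 genes that passed filterByExpr and applied to total counts. Log2 CPM used a prior count of 2. Lengths and positions came from GENCODE M21 (37536 of 37646 identifiers matched without version). Intervals are exact and 95%: binomial for ratios between tumours, Poisson for levels. DESeq2 1.42.0 gave alternative size factors, and Python 3.11.15, SciPy 1.17.1 and matplotlib 3.10.9 were also used. Range calls were tested on simulated counts with set folds and Poisson error only. As no other spread between tumours was simulated, that test cannot judge differences between these libraries.

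Library numbers follow accession order and are only names. The members and lists were chosen with earlier results of these data known. Named were all members and, of each pathway list, the 3 genes of highest mean CPM, the 2 of largest SD and any averaging under 1 CPM, plus the 5 genes closest in pattern to each member that ranged by 2-fold. Tnip3, Cd83, Bcl2l1, Map3k7, Xiap and the markers Cd68, Mrc1, Prf1 and Klrb1c were named after their values were seen. Another pathway list is not reported here.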

Additional observations from a re-analysis of the deposited data

How the results depend on the processing

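Tnfaip3 and Tnip1 were the 2 members with a range of 2-fold or more, and the same 2 were called with DESeq2 size factors, total counts, factors without a filter on low counts and prior counts of 0.5 and 5. At 1.5-fold 6 members were called (67.9% of expressed genes), and at 4-fold 1, Tnfaip3 (18.4%). Leaving out each tumour in turn gave 1 to 2 members, since Tnip1 was not called without tumour 1 or without tumour 3. The median SD over the members was 0.22 to 0.46 when a tumour was left out and 0.33 to 0.36 under the other alternatives run. The Tnfaip3 log2 ratio of tumour 1 to tumour 3 was 3.02, with 3.07 by DESeq2 size factors and 2.96 by total counts. The LUBAC balance was -2.86 with the length of the longest transcript in place of merged exons, as the lengths of Rbck1 and Sharpin differ most between both. The count of members at 10 CPM in every tumour was 9 throughout, and 8 at 20 CPM. The order of the tumours was the same for 8 members under every scaling, and Rnf31 was lowest in tumour 2 (log2 difference from tumour 1 of -0.01) with factors computed without a filter. With total counts the median expressed gene was 0.14 higher (log2) in tumour 3 than in tumour 1. No paired analysis was possible because there is 1 group. Under the alternatives, 31 of 45 values of a member's SD moved by more than 1.1 times, mostly on leaving out a tumour. Each tumour is 1 library, so depth, cell makeup and tumour cannot be told apart.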
